A study of Mus musculus with 12 samples.

Results

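The eIF4F translation initiation factors are described here from hippocampal RNA-Seq of mice exposed to ethanol through the drinking of the dam, to maternal separation stress after birth, or to both. The members are 10 genes chosen by name, namely Eif4g1, Eif4g2, Eif4g3, Eif4e, Eif4e2, Eif4a1, Eif4a2, Eif4b, Eif4h and Eif4ebp2, out of 35580 genes that the annotation gives for the table. They carry 117 of its 115270 transcripts, of which 84 passed a filter set at 0.1 or more in 6 or more of the 12 libraries. Eif4g1 is a gene that the study itself discusses, so its inclusion owes something to earlier results of these data.

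All 12 libraries came from individual C57BL/6 males (C57BL/6J in the study's methods) killed at postnatal day 70, with 3 mice in each of 4 groups. Control mice had dams that drank water and were themselves left undisturbed with the dam. Ethanol mice had dams that drank 10% ethanol in water by choice, in gestation by the labels. By the study's methods the dams had it from before mating, apart from the mating itself, to postnatal day 10, so that access ran into the days of separation. Stress pups, from dams that drank water, were kept away from dam and litter for 3 h each day from postnatal day 2 to 14, and ethanol + stress mice had both exposures. Litters were divided between undisturbed and separated pups, but which mice share a litter is not given, so p values measure the spread between these mice. The tissue was whole hippocampus, in which fewer cells of a type and less RNA per cell cannot be told apart.

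eIF4F is the complex that brings a capped mRNA to the small ribosomal subunit. The cap-binding protein eIF4E sits on the scaffold eIF4G, which also holds the RNA helicase eIF4A, and eIF4B and eIF4H stimulate that helicase. The 4E-BPs occupy the site on eIF4E that eIF4G needs and let go of it when mTOR phosphorylates them. In neurons this step is known as a control point of the protein synthesis that long-lasting synaptic plasticity and memory require.

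One member transcript, Eif4g1-210 (ENSMUST00000132320.7), is annotated as retained intron and 5004 bases long. It begins inside the intron before exon 8 of the 33 exons of the main isoform Eif4g1-201, keeps the last 306 of that intron's 783 bases (chr16:20678276-20678581, GRCm38, plus strand), and then runs on with 26 exons in all. Reads are divided among transcripts by shared 31-base words, and 241 of the 4974 words of Eif4g1-210 occur in no other member transcript, all of them in 2 stretches of 160 and 141 bases within its first exon. The following stretches, read from the GENCODE transcript sequences, come from parts by which the transcripts described below are told apart. Capitals mark the last 113 bases of the kept intron in Eif4g1-210 (stretch chr16:20678469-20678609), the first exon of Eif4g2-207 and the last 32 bases of that of Eif4g2-211 (chr7, minus strand), the last 6 bases, past the exon end, in Eif4g3-206 (stretch chr4:137994116-137994150), the first exon of Eif4a2-215 (chr16, plus strand), and the extra exon of Eif4h-205 (chr5:134624441-134624500, minus strand).
Eif4g1-210: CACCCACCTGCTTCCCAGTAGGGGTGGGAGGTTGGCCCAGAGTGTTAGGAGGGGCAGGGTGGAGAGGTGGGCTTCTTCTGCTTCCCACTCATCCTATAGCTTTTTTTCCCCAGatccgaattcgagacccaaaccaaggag
Eif4g2-207: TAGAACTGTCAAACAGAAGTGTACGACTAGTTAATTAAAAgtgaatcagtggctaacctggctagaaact
Eif4g2-211: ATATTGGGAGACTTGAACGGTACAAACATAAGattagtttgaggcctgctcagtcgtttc
Eif4g3-206: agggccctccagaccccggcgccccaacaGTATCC
Eif4a2-215: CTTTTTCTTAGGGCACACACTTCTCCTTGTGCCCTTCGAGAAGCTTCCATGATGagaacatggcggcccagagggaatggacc
Eif4h-205: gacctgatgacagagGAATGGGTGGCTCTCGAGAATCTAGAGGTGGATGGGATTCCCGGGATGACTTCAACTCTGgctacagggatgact
Eif4h-201: gacctgatgacagaggctacagggatgact

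The Eif4h pair shows the same junction with and without the 60-base exon, which lies within the coding sequence. The transcripts also differ in their untranslated ends, which are not shown: of the words of its own that Eif4h-205 has, 143 lie in its first 173 bases and 156 in its last 186, against 28 at the exon. Eif4g3-206 is told apart from the other Eif4g3 transcripts by its last 6 bases, which leave it 5 words of its own. Eif4g1-221 (ENSMUST00000154950.7), a further transcript met below, has no word of its own among the member transcripts and is therefore not shown.

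The unit is TPM, an abundance that accounts for transcript length and that is taken here to have been scaled between libraries by the authors, in a way the sources used here do not give, and a gene sum adds all transcripts of a gene. From the step between low values the libraries hold 12040000 to 14890000 read pairs, and intervals or floors taken from them cover counting error only. There are 3 libraries that stand apart, namely ethanol replicate 2 and ethanol + stress replicates 2 and 3. Their values change with transcript length by -0.099, -0.072 and -0.055 on the log2 scale per doubling, against -0.015 to 0.064 in the other 9, so that long transcripts are low and short ones high in them. The same 3 libraries have the highest totals, 1126490 to 1173650 against at most 1024268, and the highest summed blood markers (all 5 found, none at 0 throughout), 3977.5 to 6814.9 against 1602.9 to 3471.6. Summed astrocyte markers (4 of 4 found) were 1371.8 to 1611.6 in them against 976.8 to 1328.8, and oligodendrocyte markers (5 of 5 found) were 5085.4 to 5907.8 against 2638 to 5334.5. Markers of hippocampal excitatory neurons (7 of 7 found) summed to 1087.5 to 1288.3 over all 12 libraries, and those of choroid plexus (6 of 6 found) ranged from 40.1 to 7232. Microglial markers summed to 136.5 to 193.4, thalamic ones to 41.3 to 62.3 and striatal ones to 42.8 to 73.1. Blood markers were also higher in every treated library, at 2454.2 to 6814.9, than in the controls, at 1602.9 to 2022.1. The part of these differences in the results was not tested except by leaving the 3 libraries out. That leaves 2 ethanol mice and 1 ethanol + stress mouse (replicate 1), so the spread then comes from the other groups, and this lone mouse is assumed to vary like them.

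All 10 members were expressed in every library, and no member gene sum was called in a comparison of groups. In each of 5 comparisons, limma called 0 of the 10 sums at an unadjusted p under 0.01, and 0 had a p under 0.05. The share of all genes with a p under 0.05 was 3.63% for ethanol, 2.4% for stress and 5.37% for ethanol + stress against control, 4.1% for ethanol + stress against stress and 2.69% for the interaction. Over all 18434 genes tested, the share called was 0.678% for ethanol against control, 0.51% for stress against control, 0.971% for ethanol + stress against control, 0.705% for ethanol + stress against stress and 0.461% for the interaction of ethanol and stress. For no member did the libraries of one group lie wholly above or below those of the other, in comparisons where this held for 8.25%, 7.2%, 10.2% and 8.14% of all genes, in the order of the first 4. The first 3 comparisons share the control mice, whereas ethanol + stress against stress uses none of the mice of ethanol against control. The members' median log2 fold change was -0.035 for ethanol, 0 for stress and 0.011 for ethanol + stress against control, beside 0.023, 0.004 and 0.023 over all genes.

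Eif4a2, a helicase gene, was highest, at a mean of 1191 over the 12 libraries, followed by Eif4g2 at 423, Eif4a1 at 376, Eif4h at 232, Eif4e at 176, Eif4b at 116, Eif4g1 at 90.3, Eif4g3 at 39.7, Eif4e2 at 33.7 and Eif4ebp2 at 6.71. The ranges over libraries overlapped between Eif4g2 and Eif4a1, between Eif4b and Eif4g1, and between Eif4g3 and Eif4e2, and the other neighbours in this order had ranges that did not meet. Within libraries, Eif4b was above Eif4g1 in 12 of 12, Eif4g2 above Eif4a1 in 11 of 12 and Eif4g3 above Eif4e2 in 8 of 12. These are sums over all transcripts, and coding transcripts held a mean of 40.6% of the Eif4g2 sum.

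**Figure D1:**
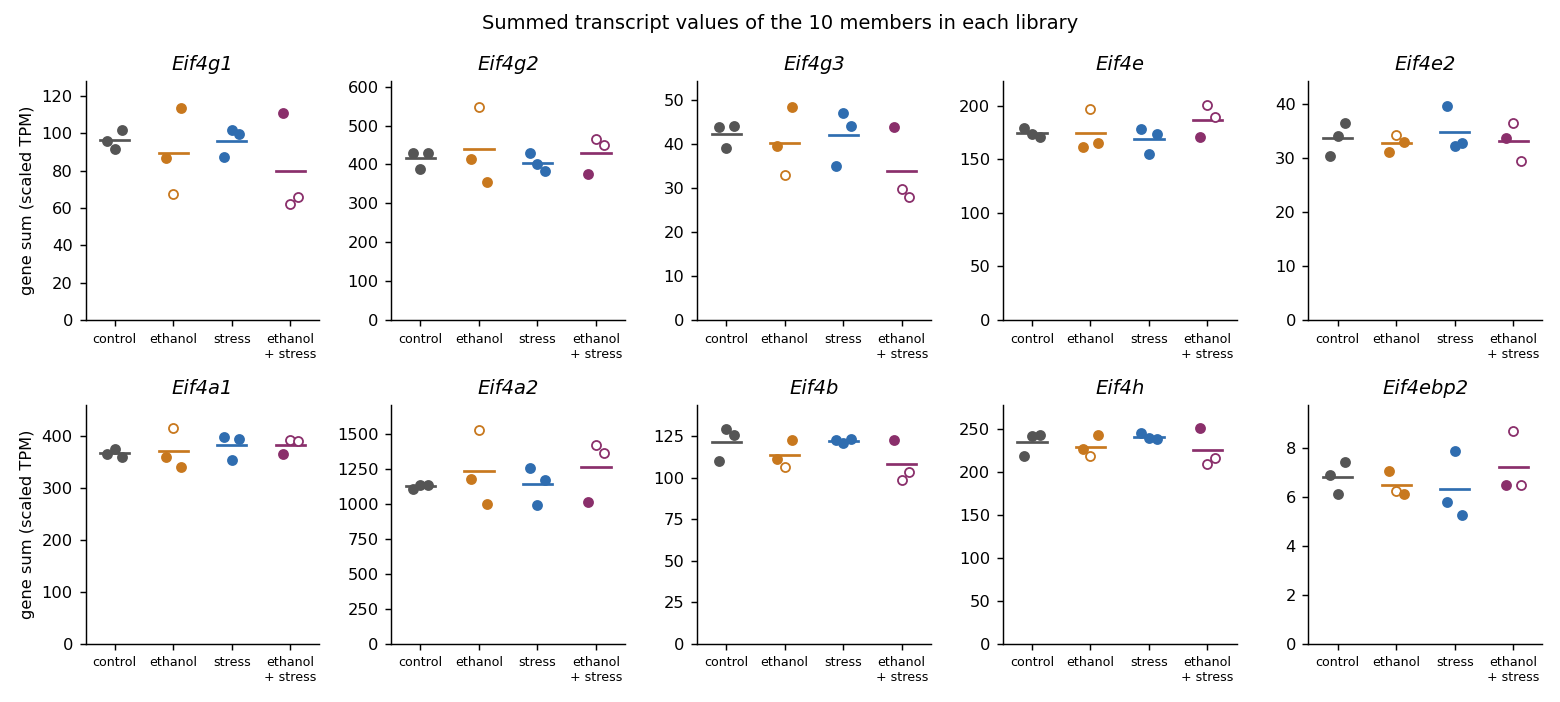
Gene sums of the 10 members in scaled TPM (vertical axes, from 0) by group, with 1 point per library, bars for group means, and open points for the 3 libraries of lowest length slope. The groups overlap for every member, and the open points sit lowest for Eif4g1, Eif4g3, Eif4b and Eif4h and highest for Eif4g2, Eif4e and Eif4a2.

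Among the scaffolds, Eif4g1 encodes the main eIF4G of cap-dependent initiation (chr16:20668313-20692884). Its sum was 95.8, 91.6 and 101.9 in control mice, 86.9, 67.4 and 113.7 in ethanol mice, 87.1, 101.5 and 99.5 in stress mice, and 110.6, 62.3 and 65.6 in ethanol + stress mice. Ethanol and ethanol + stress mice each held values on both sides of the controls, with the 3 lowest in the libraries that stand apart. On the log2(value + 0.5) scale, on which all fold changes below are given, limma gave -0.14 ± 0.214 (SE) for ethanol, -0.01 ± 0.214 for stress and -0.33 ± 0.214 for ethanol + stress against control, with adjusted p values of 0.997, 1 and 0.791. Without the 3 libraries the values were 0.05 for ethanol and 0.2 for ethanol + stress. Without ethanol + stress replicate 1, the only library of its group outside those 3, the latter was -0.59 and was called.

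Eif4g3, the second full-length scaffold (chr4:137993022-138208508), had its 3 lowest values in the same libraries as Eif4g1. It was at 43.8, 39.1 and 44.2 in control mice, 39.7, 33 and 48.4 in ethanol mice, 35.1, 47.2 and 44.1 in stress mice, and 43.9, 29.7 and 27.9 in ethanol + stress mice. The fold changes against control were -0.08 ± 0.182 (SE) for ethanol, -0.02 ± 0.182 for stress and -0.35 ± 0.182 for ethanol + stress, and the last, with an adjusted p of 0.791, was the largest in size of any member sum against control. It was 0.05 without the 3 libraries, and -0.55, which was called, without ethanol + stress replicate 1. The ratio of Eif4g1 to Eif4g3 stayed between 2.04 and 2.52 in all libraries.

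Eif4g2 (also known as DAP5, chr7:111067750-111083030) encodes an eIF4G relative without the site for eIF4E. Its libraries were ordered the other way round, with 430.6, 388.2 and 429 in control mice, 414.3, 549 and 355.3 in ethanol mice, 428.7, 401.6 and 382.7 in stress mice, and 374.8, 465.8 and 450.4 in ethanol + stress mice. Fold changes against control were 0.06 ± 0.147 (SE), -0.04 ± 0.147 and 0.04 ± 0.147 for ethanol, stress and ethanol + stress. The ratio of Eif4g2 to Eif4g1 was 4.31 ± 0.157 (SD, n = 3) in control mice and 8.15, 7.48 and 6.87 in the 3 libraries that stand apart, against 3.12 to 4.92 in the other 9. On average 53.2% of the Eif4g2 sum was the short processed transcript Eif4g2-211, described below, which was highest in those 3 libraries.

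Of the cap-binding proteins, Eif4e (chr3:138526179-138559696) encodes eIF4E itself. It was measured at 179.4, 173.4 and 170.8 in control mice, 161.6, 196.8 and 165.2 in ethanol mice, 177.9, 155 and 173.1 in stress mice, and 171.1, 200.3 and 189.2 in ethanol + stress mice. The highest 3 values are again those of the libraries that stand apart, and the fold changes against control were -0.01 ± 0.0976 (SE), -0.05 ± 0.0976 and 0.1 ± 0.0976. Eif4e2, which encodes the cap-binding repressor 4EHP (chr1:87213914-87240488), was at 30.5, 34.1 and 36.6 in control mice, 31.2, 34.3 and 33 in ethanol mice, 39.8, 32.2 and 32.9 in stress mice, and 33.8, 36.5 and 29.5 in ethanol + stress mice. Its fold changes were -0.04 ± 0.112 (SE), 0.05 ± 0.112 and -0.02 ± 0.112, and eIF4E transcripts exceeded those of 4EHP by 4.47 to 6.41 times in every library.

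The helicase comes from a pair of paralogs. Eif4a2, the eIF4A paralog that prevails in brain (chr16:23107444-23114136), was at 1108.6, 1135.8 and 1134.8 in control mice, 1175.1, 1526 and 1001.9 in ethanol mice, 1257.1, 990.3 and 1166.8 in stress mice, and 1014.4, 1418.9 and 1360.4 in ethanol + stress mice. The SD was 15.4 for control, 267 for ethanol, 136 for stress and 219 for ethanol + stress mice, and the 3 libraries that stand apart were at the top. Fold changes against control were 0.11 ± 0.177 (SE), 0.01 ± 0.177 and 0.15 ± 0.177. Eif4a1, the paralog tied to growing cells (chr11:69666936-69672423), was at 365.9, 374.8 and 359.3 in control mice, 360.3, 415 and 340 in ethanol mice, 397.7, 354.6 and 394.4 in stress mice, and 366.1, 393.1 and 390.7 in ethanol + stress mice. Its fold changes were 0.01 ± 0.0938 (SE), 0.06 ± 0.0938 and 0.06 ± 0.0938. Eif4a2 exceeded Eif4a1 by 2.77 to 3.68 times, with group means of 3.07 ± 0.0741 (SD, n = 3) in control mice, 3.3 ± 0.366 in ethanol mice, 2.97 ± 0.184 in stress mice and 3.29 ± 0.452 in ethanol + stress mice.

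The level of Eif4a1 is uncertain, because 67.55% of the 31-base words of its coding transcript Eif4a1-213 also occur in other genes, mostly the processed copies Eif4a-ps4 and Gm5513. The same holds for 20.71% of the words of Eif4a2-201 (Gm2999 and Gm18949) and 56.9% of those of Eif4e-202 (mostly Gm7327). Reads of these stretches could be divided between the gene and its copies. For the largest transcripts of Eif4g1, Eif4g3, Eif4h, Eif4e2 and Eif4ebp2 the share was at most 0.98%, and for that of Eif4b it was 6.17%.

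Both helicase cofactors were low in the libraries that stand apart. Eif4b (chr15:102073773-102097173), whose protein is a target of S6 kinases, was at 110, 129.2 and 125.6 in control mice, 111.4, 106.2 and 122.8 in ethanol mice, 122.4, 120.9 and 123 in stress mice, and 122.4, 98.4 and 103.3 in ethanol + stress mice. Fold changes against control were -0.1 ± 0.0989 (SE), 0.01 ± 0.0989 and -0.17 ± 0.0989. Eif4h (chr5:134619721-134639490) was at 218.9, 241.8 and 242.4 in control mice, 226.2, 218.1 and 242.5 in ethanol mice, 244.9, 239.7 and 237.8 in stress mice, and 250.6, 208.7 and 216.5 in ethanol + stress mice. Its fold changes were -0.03 ± 0.0888 (SE), 0.04 ± 0.0888 and -0.06 ± 0.0888. The 2 cofactors kept nearly the same ratio throughout, with Eif4h at 1.87 to 2.12 times Eif4b.

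Eif4ebp2, the 4E-BP that prevails in brain and binds eIF4E in competition with eIF4G (chr10:61428491-61452661), was the lowest member. It was at 6.9, 6.11 and 7.41 in control mice, 7.08, 6.26 and 6.13 in ethanol mice, 5.78, 7.86 and 5.28 in stress mice, and 6.49, 8.71 and 6.47 in ethanol + stress mice, and the 4 groups overlap. Fold changes were -0.06 ± 0.17 (SE), -0.12 ± 0.17 and 0.07 ± 0.17. Eif4e exceeded it by 19.7 to 32.8 times. These are transcript levels per length and say nothing of the amounts of protein.

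**Figure D2:**
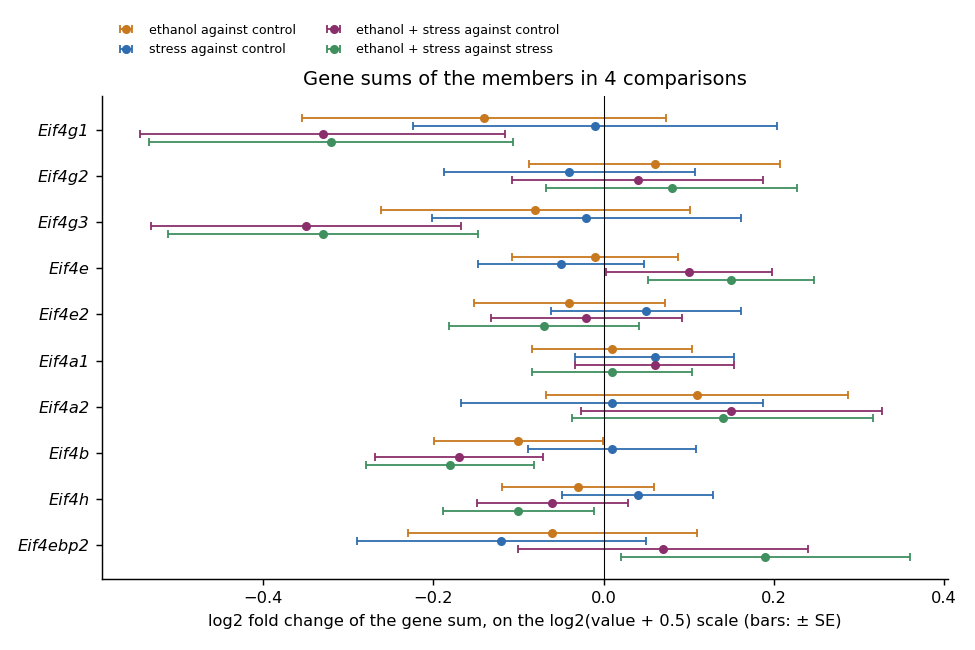
Log2 fold change of each member's gene sum (horizontal axis, log2(value + 0.5) scale) with its SE from limma, for 3 groups against control and for ethanol + stress against stress. The values span -0.35 to 0.19, and the pair of scaffolds Eif4g1 and Eif4g3 lie farthest below 0 for ethanol + stress.

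The 3 libraries that stand apart were picked for their low length slope over all transcripts, so the members' positions in them are a description and no test. Weighted by abundance, the mean transcript length was 5213 bases for Eif4g3, 4661 for Eif4g1, 3822 for Eif4b and 2472 for Eif4h, and for these 4 the 3 libraries lay below all the other 9. It was 2103 for Eif4g2, 1648 for Eif4a2 and 1638 for Eif4e, and for these the 3 libraries lay above all others. Within Eif4g2 this held for the processed transcript Eif4g2-211 of 522 bases. It did not hold for the coding Eif4g2-206 of 3548 bases, at 128.6, 144.1 and 129.2 in the 3 libraries against 115 to 137.5 in the other 9. Eif4e2, at 2082, Eif4a1, at 1921, and Eif4ebp2, at 5680, overlapped with the other 9, so that 3 of the 10 members, including the longest by this mean, did not follow an order by length. After each library's trend over length was taken out, 0 member sums were called in any comparison.

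**Figure D3:**
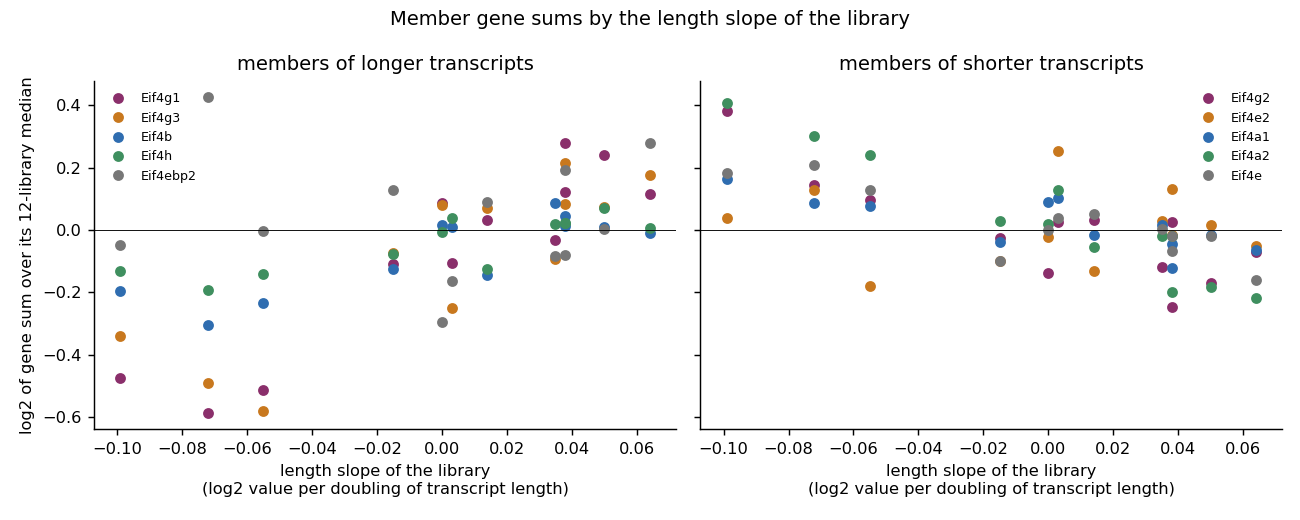
Log2 ratio of each member's gene sum to its median over the 12 libraries (vertical axis) by the length slope of the library (horizontal axis, log2 value per doubling of transcript length), with members of longer transcripts at left and of shorter ones at right. The 3 libraries below -0.05 on the horizontal axis hold the lowest values of Eif4g1, Eif4g3, Eif4b and Eif4h and the highest of Eif4g2, Eif4a2 and Eif4e.

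The members differ in how much of their signal comes from transcripts that are not annotated as coding. The 117 transcripts comprise 59 protein coding, 36 retained intron, 16 processed transcript and 6 nonsense-mediated decay entries. Coding transcripts held all of the sums of Eif4e2 and Eif4ebp2 and, as means over the 12 libraries, 99.3% of Eif4b, 97% of Eif4h, 96.9% of Eif4e, 94.7% of Eif4g3 and 90.1% of Eif4g1. They held 73.4% of Eif4a1, 67.9% of Eif4a2 and 40.6% of Eif4g2. Retained introns made up 18.6% of Eif4a1, 8.75% of Eif4g1 and 8.54% of Eif4a2. Since the libraries were made from total RNA without rRNA, unspliced precursors and spliced transcripts that keep an intron cannot be told apart.

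**Figure D4:**
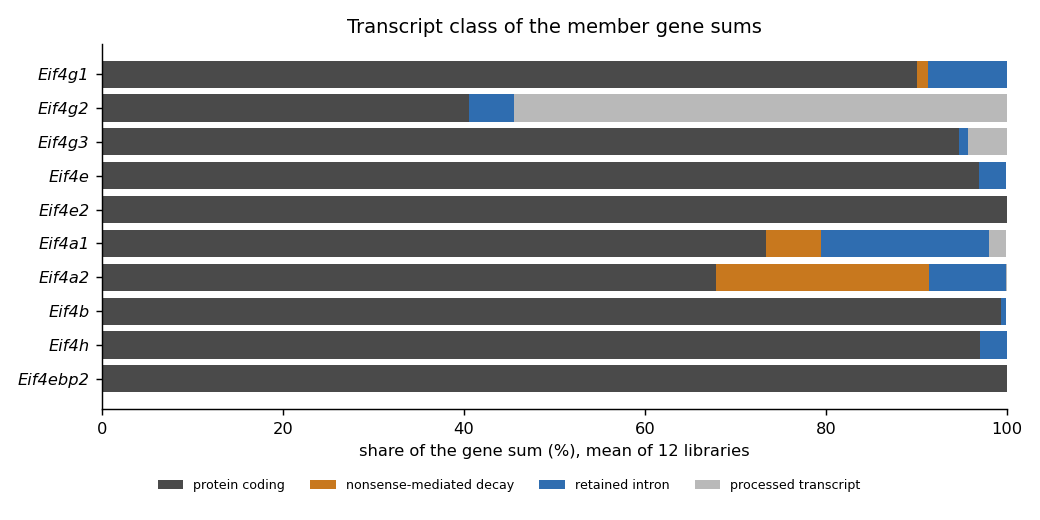
Share of each member's gene sum (horizontal axis, %, mean of 12 libraries) by annotated transcript class. Processed transcripts make up 54.5% of Eif4g2, and nonsense-mediated decay transcripts 23.5% of Eif4a2.

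In Eif4g2 a short transcript had the largest share of the gene sum in every library. Eif4g2-211, a processed transcript of 522 bases with the end of its first exon shown above, was 45.9% to 65.1% of the gene sum, followed by the coding Eif4g2-206 at 23.4% to 35.4%. Read pairs, which are not divided by length, run the other way, at 479 to 867 for Eif4g2-211 against 2879 to 4290 for Eif4g2-206. In scaled TPM, Eif4g2-211 was at 238.6, 200 and 225.1 in control mice, 214.7, 357.5 and 163 in ethanol mice, 250.7, 197.5 and 191.7 in stress mice, and 174.6, 257 and 255.2 in ethanol + stress mice. The 3 highest values are those of the libraries that stand apart. The coding transcripts of Eif4g2 alone gave fold changes of 0.07 for ethanol, 0.02 for stress and 0.1 for ethanol + stress against control, none of them called.

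In Eif4a2 the transcript annotated for nonsense-mediated decay, Eif4a2-210, made up 20.1% to 25% of the gene sum beside 32.7% to 39.9% for the coding Eif4a2-201. Eif4a2-210 has no word of its own among the member transcripts, so its value is an estimate from shared reads. The nonsense-mediated decay share was 23.4% ± 2.54 (SD, n = 3) in control mice, 23.2% ± 1.07 in ethanol mice, 24.8% ± 0.39 in stress mice and 22.5% ± 0.614 in ethanol + stress mice. In Eif4a1 the retained introns made up 18.7% ± 3.52 (SD, n = 3), 20.1% ± 1.26, 20.1% ± 6.52 and 15.5% ± 1.09 in the same order. The group means of each share differed by less than the libraries of its most variable group.

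The 2 coding forms of Eif4h, which differ by the 60-base exon and at both ends, were both abundant. The short Eif4h-201 held 49.5% to 59.8% of the gene sum and the long Eif4h-205 36.6% to 46%. The ratio of long to short was 0.693, 0.704 and 0.717 in control mice, 0.691, 0.93 and 0.646 in ethanol mice, 0.748, 0.688 and 0.888 in stress mice, and 0.625, 0.612 and 0.769 in ethanol + stress mice. Control mice lay close together and the other groups spread on both sides of them. The ratio is one of whole transcripts and no measure of the exon alone.

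In Eif4e, the coding transcript Eif4e-205 of 729 bases was 14.7%, 14.1% and 14.6% of the gene sum in control and 10.5%, 10.4% and 10.6% in ethanol mice, with no overlap. In stress mice it was 11%, 9.6% and 15.1%, and in ethanol + stress mice 12.1%, 17.2% and 8.74%, so the spread within those groups covers both. Its transcript level did not pass the call for ethanol against control (-0.46 ± 0.25 SE, limma adjusted p = 0.956), though it did with only the groups compared, at the same fold change, and its choice here was made after its values were seen.

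Of the 84 member transcripts tested, 3 were called for ethanol against control, all lower in ethanol mice, 1 for ethanol + stress against control, lower in ethanol + stress mice, and 0 for stress against control, for ethanol + stress against stress and for the interaction. Among all 59852 transcripts tested the share called was 1.26%, 0.914%, 1.21%, 1.15% and 0.854% for ethanol, stress and ethanol + stress against control, ethanol + stress against stress, and the interaction. At a p under 0.05 the member counts were 8, 0, 9, 7 and 7 in that order, or 9.52%, 0%, 10.7%, 8.33% and 8.33%, beside 5.43%, 3.88%, 5.57%, 4.98% and 4.06% of all transcripts. After Benjamini-Hochberg adjustment over all transcripts the lowest p of these 4 calls was 0.503. The groups did not overlap for 11, 3, 13 and 11 of the 84 member transcripts in the first 4 comparisons, or 13.1%, 3.57%, 15.5% and 13.1%. This share was not counted over all transcripts, and was 7.2% to 10.2% for gene sums, so a lack of overlap in a single transcript is a description. The calls for ethanol were Eif4g1-210, Eif4g2-207 and Eif4g3-206, the last of which lies under the read-pair floor given below.

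Eif4g1-210, the retained intron transcript with the sequence shown first above, was at 5.35, 7.74 and 6.83 in control mice and at 0.00358, 0.165 and 3.04 in ethanol mice. All ethanol values lie below all control values, and in read pairs they correspond to 0, 6 and 136 against 212, 278 and 265. The transcript has 241 of 4974 words of its own, so these read pairs are estimates that rest in part on shared stretches. It was known from earlier results of these data when the members were chosen, so that comparison is given as a description, with a log2 fold change of -2.74 ± 0.609 (SE) that ranged from -3.92 with a pseudocount of 0.1 to -2.18 with 1. The value was -3.61 without ethanol replicate 3, -2.2 without ethanol replicate 1 and -2.41 without the 3 libraries that stand apart. Stress mice, at 4.74, 7.35 and 8.2, overlapped with controls, with a fold change of 0.01 ± 0.609 (limma, adjusted p = 1). Ethanol + stress mice were at 2.16, 4.14 and 1.92, also wholly below stress mice, with a fold change of -1.2 ± 0.609 against stress that missed the call (limma, adjusted p = 0.948). The interaction did not pass the call (1.54 ± 0.861 SE, limma adjusted p = 1).

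Eif4g1-210 made up 4.68% of the Eif4g1 sum on average, against 55.5% for Eif4g1-201, and the gene sum was not called. Summed over the 4 retained intron transcripts, the share of Eif4g1 was 7.19%, 10.3% and 12.2% in control mice, 5.76%, 1.45% and 6.85% in ethanol mice, 8.9%, 8.82% and 16.7% in stress mice, and 5.22%, 11.7% and 9.88% in ethanol + stress mice. Ethanol mice lay below control mice in this share, while ethanol + stress mice overlapped with them. As a class sum in scaled TPM the fold change for ethanol was -1.27 ± 0.529 (SE), which missed the call (limma, adjusted p = 0.97). The share of retained intron transcripts among all transcripts of a library was 3.3%, 3.32% and 3.35% in ethanol mice and 3.12%, 3.16% and 3.18% in control mice, with 3% to 3.19% in the other 2 groups.

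Eif4g2-207 is a processed transcript of 429 bases and 2 exons, told apart by the 40 words over its first exon. It was at 5.7, 13.5 and 4.95 in control mice, 0, 0 and 3.74 in ethanol mice, 7.3, 6 and 2.2 in stress mice, and 4.14, 10.1 and 4.74 in ethanol + stress mice. The control values correspond to 11, 23 and 9 read pairs, and the ethanol values to 0, 0 and 8. The fold change for ethanol was -2.93 ± 0.784 (SE, limma adjusted p = 0.688), and it depends on the pseudocount, from -4.45 with 0.1 to -2.31 with 1. It was not called with only the groups compared (-2.93), without the 3 libraries that stand apart (-2.42), without ethanol replicate 1 (-2.42) or replicate 2 (-2.42), or without control replicate 2 (-2.51). Ethanol + stress and stress mice overlapped for this transcript.

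Eif4g3-206, the processed transcript that differs in its last 6 bases, was at 0.806, 1.8 and 1.66 in control and listed at 0 in the 3 ethanol mice. This is 1, 2 and 2 read pairs against none, which is under the floor of 3 read pairs in every library, so no fold is given and the call (limma, adjusted p = 0.503) rests on 5 read pairs. Stress mice were at 0.755, 0.92 and 1.44 and ethanol + stress mice at 0, 0.774 and 0.834.

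Eif4g1-221, a coding entry of 850 bases and 7 exons, was called for ethanol + stress against control. It was at 1.18, 2.02 and 2.04 in control mice, 0.57, 3.52 and 1.59 in ethanol mice, 0.93, 0.636 and 1.72 in stress mice, and 0, 0 and 0.514 in ethanol + stress mice, which is 6, 10 and 11 read pairs in control and 0, 0 and 3 in ethanol + stress mice. The fold change was -1.8 ± 0.505 (SE, limma adjusted p = 0.753), and the pseudocount sets its size, from -3.3 with 0.1 to -1.24 with 1. Summed over mice these are 27 and 3 read pairs, a ratio of 0.103 per read pair sequenced. Taken as counts, they give an exact 95% interval of 0.0199 to 0.334 for counting error. This interval leaves out the spread between mice and the error of dividing reads among transcripts, so it is no test of the groups. Against stress the fold change was -1.28 ± 0.505 (limma, adjusted p = 0.948), with no overlap between the groups. It was no longer called when control replicate 2 or 3 or ethanol + stress replicate 1 or 2 was left out, at fold changes of -1.71 to -1.63. Since no 31-base word is its own, these read pairs were assigned to it entirely from stretches shared with other Eif4g1 transcripts.

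Of 24 class sums of members tested, 1 was called, for ethanol + stress against control, and 0 in the other 4 comparisons, with 2, 3, 1, 1 and 1 at a p under 0.05 for ethanol + stress, ethanol and stress against control, ethanol + stress against stress, and the interaction. These are 8.33%, 12.5%, 4.17%, 4.17% and 4.17%, beside 5.49%, 5.06%, 3.46%, 4.77% and 3.4% of all class sums. Among all 32112 class sums the share called was 1.08%, 1.2%, 0.75%, 1.09% and 0.719% in that order. The called sum is the processed transcript class of Eif4a2, which is the single transcript Eif4a2-215. It was at 0, 1.3 and 1.27 in control mice, 0.556, 1.28 and 0.519 in ethanol mice, 1.08, 0.675 and 1.11 in stress mice, and 2.85, 2.77 and 2.54 in ethanol + stress mice, which thus lie above all other libraries. In read pairs these are 0, 4 and 4 in control and 10, 9 and 8 in ethanol + stress mice. The class sum had a fold change of 1.46 (limma, adjusted p = 0.835), which was 2.29 with a pseudocount of 0.1, where it was not called, and 1.1 with 1, and as a transcript, in the table of all transcripts, it missed the call (adjusted p = 0.825). Without control replicate 1, where it was at 0, the fold change was 0.85 and not called. The class sum was not called under 16 of 23 alternatives in all. One of these left out the 3 libraries that stand apart, which leaves a single ethanol + stress mouse, and gave 1.52.

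**Figure D5:**
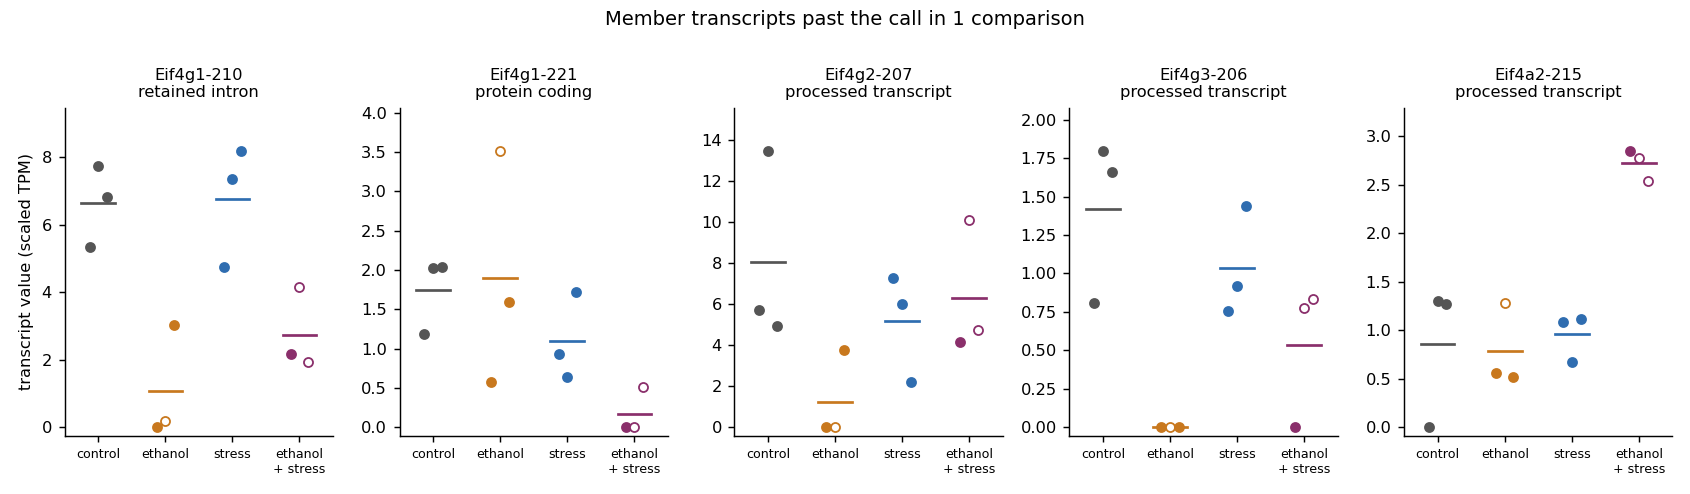
Values of 5 member transcripts in scaled TPM (vertical axes) by group, with 1 point per library, bars for group means, and open points for the 3 libraries of lowest length slope. Eif4g1-210 and Eif4g2-207 are lower in ethanol than in control mice, Eif4g1-221 is lower and Eif4a2-215 (called as a class sum) higher in ethanol + stress than in control mice, and Eif4g3-206 rests on at most 2 read pairs in a library.

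Among transcripts not called for ethanol + stress against control, Eif4a2-215 was followed by Eif4h-204, a retained intron transcript that runs on past the 60-base exon into the intron. It was at 1.62, 1.46 and 1.46 in control mice, 4.73, 4.31 and 2.16 in ethanol mice, 3.3, 1.53 and 3.35 in stress mice, and 2.45, 3.99 and 6.41 in ethanol + stress mice. Ethanol and ethanol + stress mice lay above controls, with fold changes of 1.01 ± 0.385 (SE, limma adjusted p = 0.865) and 1.16 ± 0.385 (adjusted p = 0.834), whereas ethanol + stress and stress mice overlapped. For ethanol + stress against stress the smallest p values belonged to Eif4a2-209 (1.48), Eif4g3-202 (-0.6) and Eif4g1-221, given above, each with an adjusted p of 0.948 by limma. Eif4g3-202 is the main isoform of its gene and 6139 bases long. For stress against control they belonged to Eif4a1-206 (1.27), Eif4b-203 and Eif4a2-204 (1.18), and for the interaction to Eif4b-203, Eif4g2-207 (3.24) and Eif4a1-206 (-2.12), all with an adjusted p of 1 by limma. Eif4b-203 had 0, 0 and 1 read pairs in control, 4, 1 and 1 in ethanol, 1, 2 and 1 in stress and 1, 0 and 0 in ethanol + stress mice. This is under the floor of 3 in every library but ethanol replicate 1, so no fold is given for it.

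The wider pathway was counted over 3 lists of genes, all of which were tested as gene sums. Of 18 cap-side partners and regulators, such as the 4E-BPs, poly(A)-binding proteins and the CYFIP proteins, 2 were called for ethanol against control, 1 higher and 1 lower, and 0 in the other 4 comparisons. Of 18 genes of the signalling that reaches eIF4F through mTOR, AKT, S6 kinase and MNK, 1 was called for stress against control, 1 for the interaction, and 0 for the other 3. Of 33 factors of the small ribosomal subunit and their kinases, 1 was called for ethanol + stress against stress and 0 elsewhere. The shares of all genes called, given above, were 0.678% for ethanol and 0.51% for stress against control, 0.705% for ethanol + stress against stress and 0.461% for the interaction. The list medians lay between -0.029 and 0.061 on the log2 scale, beside -0.009 to 0.023 for all genes.

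Cyfip1, whose protein binds eIF4E with FMRP and represses translation at synapses, was at 81.6, 77.1 and 75.1 in control and 68.1, 65.5 and 65 in ethanol mice. The groups do not overlap, and the fold change was -0.23 ± 0.0666 (SE, limma adjusted p = 0.997). Stress mice were at 71.2, 72 and 68.9 and ethanol + stress mice at 68.7, 67.2 and 69.4, so every treated library lay below every control library. Summed blood markers separate the same libraries the other way, as given above, and their part in this difference was not tested. Cyfip1 was not called under 10 of 24 alternatives, at fold changes of -0.32 with rescaling to a common total to -0.15 with coding transcripts alone. Leaving out control replicate 1 or 2, ethanol replicate 2 or 3, or the 3 libraries that stand apart ended the call at -0.24 to -0.2.

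Eif4ebp3, another 4E-BP gene, was listed at 0 in all control mice and at 0.923, 0.964 and 0.521 in ethanol mice. It was at 0.422, 0 and 0 in stress mice and 0.3, 0.765 and 0.0176 in ethanol + stress mice, so that it was also seen outside the ethanol group. The ethanol values are 4, 4 and 3 read pairs against none in control mice, at or just above the floor of 3, and no fold is given (limma, adjusted p = 0.997). Rps6kb2, which encodes an S6 kinase, was at 8.21, 6.26 and 4.42 in control mice, 4.18, 4.77 and 3.45 in ethanol mice, 2.42, 3.29 and 4.6 in stress mice, and 4.78, 5.01 and 5.79 in ethanol + stress mice. Stress against control gave -0.79 ± 0.241 (SE, limma adjusted p = 1) although stress replicate 3 lies within the control range. From its coding transcripts alone the value was 0.28. In read pairs, which are not divided by length, Rps6kb2 had 76, 68 and 53 in control and 78, 60 and 106 in stress mice, which overlap. It was not called under 9 of 24 alternatives, among them only the groups compared (-0.79) and leaving out control replicate 1 or 2, stress replicate 1 or 2 (-0.78 to -0.59), ethanol replicate 1 or the 3 libraries that stand apart (both -0.79).

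Eif5b, the factor that joins the ribosomal subunits, was at 21.3, 23.5 and 21.1 in stress mice and at 19.7, 15.5 and 13 in ethanol + stress mice, with no overlap. Control mice, at 15.7, 17.3 and 20.1, and ethanol mice, at 17.3, 17.3 and 20.4, overlapped with ethanol + stress mice and lay below every stress mouse. The fold change was -0.46 ± 0.147 (SE, limma adjusted p = 0.887), and the 2 lowest of the libraries compared are among those that stand apart. It was not called under 16 of 24 alternatives, among them only the groups compared and leaving out any stress replicate or ethanol + stress replicate 2 or 3, with -0.32 without the last. Without the 3 libraries that stand apart, which leaves 1 ethanol + stress mouse at 19.7, it was -0.15.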

How the data were processed

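RNA-Seq was carried out on the hippocampus of 12 mice with stranded libraries of total RNA after rRNA depletion. The deposited values are a signal per transcript, taken as TPM estimates from kallisto that the authors scaled between libraries by a method not given in the sources used here, since libraries sum to 889222 to 1173650. The labels name CASAVA, kallisto, sleuth and mm10, and their versions are not given in the sources used here. Of 115270 transcripts, 113580 were matched to GENCODE vM21 (GRCm38), and those without a match carried 0.518% to 0.58% of each library. Read pairs were estimated from the step between low values, of which 78.9% to 83.6% were whole within 0.1.

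Values were summed per gene and per gene and transcript class, and 18434 genes, 59852 transcripts and 32112 class sums were fitted whole with limma 3.58.1 in R 4.3.3 on log2(value + 0.5), in one model of the 4 groups with lmFit and eBayes with a trend. Features needed a value of 0.1 or more in at least 6 libraries. A call is a two-sided unadjusted p under 0.01, given with the Benjamini-Hochberg adjusted p over all features of its kind. The code was tested on simulated data. Sums and plots came from Python 3.11.15 with matplotlib 3.10.9, NumPy 2.4.6, SciPy 1.17.1 and pandas 2.3.3.

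The members and lists were chosen with earlier results of these data known. All members are named, and listed genes are named where called. Transcripts are named mostly where they hold the largest share of their gene, are called, or have up to the 3 smallest p values in a comparison. The largest of Eif4b, Eif4e2 and Eif4ebp2 are left unnamed, and Eif4e-205 was added after its values were seen. Alternatives were other pseudocounts, filters, scalings, variance moderation, only the groups compared, only coding transcripts, a replicate block, and leaving out each library. After the data were seen, removal of the length trend and leaving out the 3 libraries of lowest length slope were added.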

Additional observations from a re-analysis of the deposited data

Results flagged for a closer look

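The gene sum of Rps6kb2, an S6 kinase gene, gave an interaction of ethanol and stress of 1.09 ± 0.341 (SE) on the log2 scale (limma, adjusted p = 1), which is what marked it. In read pairs, which are not divided by length, the gene had 76, 68 and 53 in control and 76, 58 and 73 in ethanol mice. Stress mice had 78, 60 and 106 and ethanol + stress mice 111, 92 and 64. The interaction was not called under 13 of 24 alternatives. Among these were coding transcripts alone (0.17), no filter (1.09), leaving out the 3 libraries of lowest length slope, with 1 ethanol + stress mouse left (1.08), and leaving out control replicate 1 or 2, ethanol replicate 1 or 3, stress replicate 1 or 2, or any ethanol + stress replicate (0.89 to 1.14).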

How the results depend on the processing

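Of the log2 fold changes of members and of the 4 listed genes called, 449 of 516 kept their direction and side of the threshold under settings other than leaving out 1 library, and 443 of 522 when 1 library was left out. Counts of called members stayed within 1.5 times in 151 of 170 and 138 of 180 such cases. Most of these fold changes were not called and most of these counts were 0, and they count as kept while they stay so. The shares therefore say little of the calls, whose losses are given above. With only the groups compared, 3 transcripts were called for ethanol, with Eif4e-205 in place of Eif4g2-207, and those called numbered 1 for stress, 2 for ethanol + stress against control and 3 for ethanol + stress against stress, the class sums 0 and 1 for the last 2, and Eif4g1-210 was called there at -1.19 and -1.2. For ethanol + stress against control, 2 transcripts were called with a pseudocount of 1, without the trend in eBayes and without the 3 libraries of lowest length slope. For ethanol + stress against stress, 1 was called with a pseudocount of 0.1, with the length trend removed and without the 3 libraries. For the interaction, 1 was called with a pseudocount of 0.1 and with the replicate block. The class sum called for ethanol + stress against control became 0 with a pseudocount of 0.1, no filter, rescaling to a common total, the replicate block, the length trend removed and without the 3 libraries. The replicate block also ended the calls of Rps6kb2 for stress (-0.79) and the interaction (1.09) and of Eif5b (-0.46), at the same fold changes. Replicate numbers do not pair the mice, as same-numbered libraries correlated at -0.173 to 0.164 in their deviations.

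Reversed signs were all in values not called, except that of Rps6kb2 for stress, at 0.28 from coding transcripts. Rescaling every library to the same total gave -0.02 and -0.09 for Eif4g2 and -0.07 and -0.07 for Eif4a1 (ethanol, then ethanol + stress), -0.04 for Eif4e and -0.05 for Eif4ebp2 (ethanol + stress), and -0.01 for Eif4a2, Eif4b and Eif4g1-210 (stress). Median-of-ratios factors gave 0 for Eif4a1 with ethanol. Coding transcripts alone gave 0.02 for Eif4g2 and 0 for Eif4e and -0.02 for Eif4a2 with stress, and 0.02 for Eif4e with ethanol. With the length trend removed, Eif4g1 was 0 and Eif4a2 -0.01 with stress, Eif4g2 -0.02 with ethanol and 0 with ethanol + stress, and Eif4a1 -0.03 with ethanol. Without the 3 libraries, which leaves 1 ethanol + stress mouse, ethanol and ethanol + stress gave 0.05 and 0.2 for Eif4g1, -0.11 and -0.15 for Eif4g2, 0.05 and 0.05 for Eif4g3, -0.07 and 0 for Eif4a1, -0.05 and -0.15 for Eif4a2 and 0 and 0.1 for Eif4h, and ethanol + stress gave -0.03 for Eif4e, 0 for Eif4e2, 0.01 for Eif4b and -0.06 for Eif4ebp2. The cause was not tested.

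Leaving out 1 library gave 0 to 2 called gene sums for ethanol + stress against control and against stress, both Eif4g1 and Eif4g3 without ethanol + stress replicate 1. It gave 2 to 5 called transcripts for ethanol, 0 to 1 for stress, 0 to 3 for ethanol + stress against control, 0 to 2 against stress and 0 to 3 for the interaction, and 0 to 1, 0 to 1, 0 to 2, 0 to 2 and 0 to 2 class sums in that order. For ethanol the ranges were -0.33 to 0.05 for Eif4g1, -0.11 to 0.2 for Eif4g2, -0.22 to 0.05 for Eif4g3, -0.09 to 0.05 for Eif4e, -0.11 to 0.02 for Eif4e2, -0.07 to 0.08 for Eif4a1, -0.05 to 0.25 for Eif4a2 and -0.08 to 0 for Eif4h. For stress they were -0.05 to 0.06 for Eif4g1, -0.1 to 0.11 for Eif4g3, -0.09 to 0.01 for Eif4e, -0.05 to 0.11 for Eif4e2, -0.07 to 0.1 for Eif4a2, -0.06 to 0.05 for Eif4b, -0.01 to 0.07 for Eif4h and -0.14 to 0.23 for Eif4g1-210. For ethanol + stress they were -0.02 to 0.14 for Eif4g2, -0.09 to 0.06 for Eif4e2 and -0.06 to 0.14 for Eif4ebp2. Eif4g1-210 ranged from -1.48 to -1.01 for ethanol + stress against control, -1.49 to -1.02 against stress and 1.01 to 2.41 for the interaction, which was called at 2.41 without ethanol replicate 3. Transcripts of few read pairs, Eif4g3-206 first among them, are limited by depth.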
